A study of Homo sapiens with 8 samples.

Results

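The metallothioneins MT1E, MT1F, MT1G, MT1H, MT1M, MT1X and MT2A were followed through 4 established lines of human ovarian cancer cells. Every probe set was taken whose symbol in the platform annotation is one of these 7 genes, which gave 11 of the 22277 probe sets of the array, and each of the 11 names 1 gene. MT1E, MT1F, MT1G and MT1X have 2 probe sets apiece. OVCAR-3, CAOV-3, SKOV-3 and DOV-13 each gave 1 array from untreated cells and 1 from cells that had received pI:pC (polyriboinosinic:polyribocytidylic acid, a synthetic double-stranded RNA). Cells of both groups grew in a medium with fetal bovine serum, and the labels do not tie a concentration of pI:pC or a time to any array. Each line is a single established culture, and the values describe these lines and not a tumour type.

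Metallothioneins are small, cysteine-rich proteins that bind zinc and copper and take up toxic metals such as cadmium. Their transcription rises when zinc activates the transcription factor MTF1, which binds metal response elements in the promoters, and glucocorticoids and inflammatory cytokines raise it as well. The genes lie side by side on the long arm of chromosome 16, and their coding sequences are close copies. Of the 11 probe sets, 9 carry the manufacturer's suffix _x_at, which marks probes that can also match other transcripts, against 10.9% of all probe sets. A level reported by such a probe set can hold signal from other metallothioneins, so the 11 values are not separate measurements of 7 genes, and the level of a probe set is not set against that of another below.

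The sequence before the start of the gene was at hand for MT2A, MT1H and MT1X, 3 of the 7 genes, and is shown for its metal response elements, the sites through which MTF1 acts. The 250 bases before each start are RefSeq sequence of GRCh38.p14 on the plus strand, at chr16:56608334-56608583 for MT2A, chr16:56669564-56669813 for MT1H and chr16:56682220-56682469 for MT1X. Capitals mark each match to the core of the element on either strand.
MT2A: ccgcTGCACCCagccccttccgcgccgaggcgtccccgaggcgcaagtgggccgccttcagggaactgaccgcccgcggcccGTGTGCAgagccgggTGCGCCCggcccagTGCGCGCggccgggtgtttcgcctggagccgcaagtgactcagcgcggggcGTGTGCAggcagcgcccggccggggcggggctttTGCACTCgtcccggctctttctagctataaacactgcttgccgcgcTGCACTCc
MT1H: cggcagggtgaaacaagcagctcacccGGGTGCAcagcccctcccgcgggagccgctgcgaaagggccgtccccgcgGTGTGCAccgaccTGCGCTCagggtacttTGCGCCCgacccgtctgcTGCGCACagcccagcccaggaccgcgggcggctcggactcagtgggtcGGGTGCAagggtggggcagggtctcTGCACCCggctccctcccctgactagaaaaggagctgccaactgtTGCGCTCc
MT1X: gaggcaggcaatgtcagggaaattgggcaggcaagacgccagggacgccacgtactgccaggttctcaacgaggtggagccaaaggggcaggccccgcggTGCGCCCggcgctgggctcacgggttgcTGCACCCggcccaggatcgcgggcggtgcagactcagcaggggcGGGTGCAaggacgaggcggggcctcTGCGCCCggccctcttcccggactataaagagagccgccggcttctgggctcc

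The core was searched as TGCGCNC and TGCACNC on both strands, with overlapping matches counted apart. MT1H held 8 matches, MT2A 7 and MT1X 4. Of 35116 RefSeq windows of the same length before a gene's start, 24.8% held at least 1 match, 0.37% at least 4, 0.0313% at least 7 and 0.0171% at least 8. The AP-1 site TGACTCA was found in MT2A, from 104 to 98 bases before the start, and in 4.2% of all windows. A match is a description of these letters and was not tested as a binding site.

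The deposited values are log2 expression levels made with RMA, a method that corrects background, normalizes arrays and summarises the probes of a set. The median of an array lay between 6.19 and 6.30. Of 13 epithelial or ovarian carcinoma markers, 12 reached the array median in untreated OVCAR-3, 11 in CAOV-3, 7 in SKOV-3 and 5 in DOV-13. The adhesion gene CDH1 had a mean log2 level of 9.60 in CAOV-3, 9.47 in OVCAR-3, 3.81 in SKOV-3 and 3.77 in DOV-13. EPCAM averaged 12.56, 12.00, 8.47 and 5.68 in that order of lines. CLDN3, CLDN4, MUC1 and MUC16 were likewise higher in CAOV-3 and OVCAR-3 than in SKOV-3 and DOV-13. Other markers of the list went otherwise. KRT7 and KRT19 were highest in DOV-13 (12.14 and 11.63), KRT8 was highest in SKOV-3 (11.53), and PAX8 was lowest in CAOV-3 (8.08). At most 1 of 7 measured leukocyte markers and 1 of 6 endothelial markers reached the array median on any array, and 2 to 3 of 7 fibroblast markers did.

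Metallothionein levels differed widely between the lines. CAOV-3 was the highest and OVCAR-3 the lowest line in 9 of the 11 probe sets, an order that 7.91% of all probe sets shared. In limma's F test 10 of the 11 differed between lines at an adjusted p under 0.05, where 65.5% of the 22215 probe sets that are not array controls did. CAOV-3 and OVCAR-3, at opposite ends of the metallothionein order, were the lines with the most epithelial markers. The spread behind these tests is that between the treated and the untreated array of a line, so it holds no variation between separate cultures. In these bulk samples, fewer cells with a high level and less RNA per cell cannot be told apart.

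**Figure D1:**
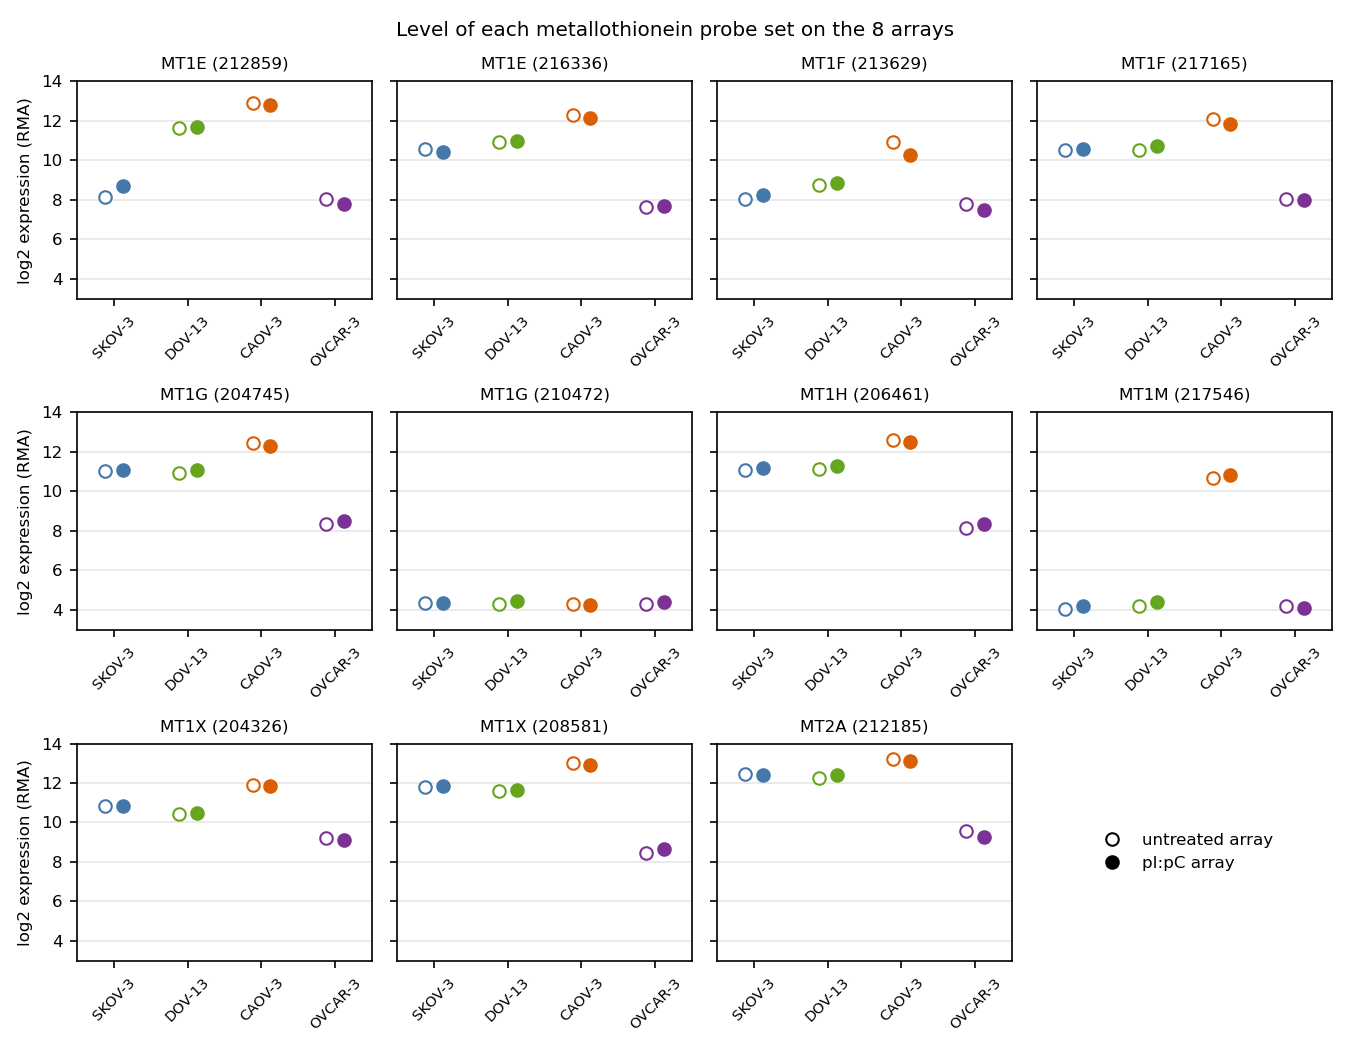
Log2 expression of each of the 11 metallothionein probe sets on the 8 arrays, with the lines along the x axis, open circles for untreated and filled circles for pI:pC arrays. CAOV-3 is highest in every panel but that of MT1G (210472_at), where all arrays lie between 4.23 and 4.47, and MT1M is bright in CAOV-3 alone.

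MT2A, the most widely expressed human metallothionein, was bright in every line. Its untreated log2 level was 12.43 in SKOV-3, 12.27 in DOV-13, 13.19 in CAOV-3 and 9.54 in OVCAR-3, and its treated level was 12.41, 12.41, 13.09 and 9.28 in that order. Both OVCAR-3 arrays lay under the other arrays, and both CAOV-3 arrays above them. The CAOV-3 mean exceeded the OVCAR-3 mean by 3.73 ± 0.11 (SE of the limma fit, adjusted p = 2.1e-07), which is 13.3-fold on the linear scale. SKOV-3 and DOV-13 differed by 0.08 ± 0.11 (SE, limma adjusted p = 0.65), within their spread. Even in OVCAR-3, MT2A stood at the 88.0 percentile of its array or higher.

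MT1X, an isoform of the metal-inducible MT1 group, showed the same order by its probe set 208581_x_at. The untreated log2 level was 11.79 in SKOV-3, 11.62 in DOV-13, 13.02 in CAOV-3 and 8.47 in OVCAR-3, and the treated level was 11.86, 11.67, 12.93 and 8.64. SKOV-3 and DOV-13 lay together, with CAOV-3 above and OVCAR-3 far below them. CAOV-3 exceeded OVCAR-3 by 4.42 ± 0.095 (SE, limma adjusted p = 5.67e-08). The other MT1X probe set, 204326_x_at, read 10.81, 10.43, 11.92 and 9.22 untreated and 10.85, 10.47, 11.86 and 9.10 treated. Its order was alike with a smaller span, 2.73 ± 0.088 (SE) between CAOV-3 and OVCAR-3, and it placed SKOV-3 above DOV-13 by 0.38 ± 0.088 (SE, limma adjusted p = 0.0113).

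MT1H, a further MT1 isoform (206461_x_at), had untreated log2 levels of 11.11 in SKOV-3, 11.16 in DOV-13, 12.62 in CAOV-3 and 8.13 in OVCAR-3, and treated levels of 11.21, 11.28, 12.49 and 8.33. The groups of arrays from CAOV-3 and OVCAR-3 did not overlap those of any other line. CAOV-3 exceeded OVCAR-3 by 4.32 ± 0.10 (SE, limma adjusted p = 8.58e-08), and SKOV-3 and DOV-13 differed by 0.06 in size (-0.063 as SKOV-3 minus DOV-13, limma adjusted p = 0.727).

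MT1F was read by 217165_x_at at 10.52 in SKOV-3, 10.51 in DOV-13, 12.10 in CAOV-3 and 8.03 in OVCAR-3 untreated, and at 10.57, 10.71, 11.84 and 8.02 treated. The order was again CAOV-3 on top, SKOV-3 and DOV-13 together and OVCAR-3 lowest. By 213629_x_at the untreated levels were 8.05, 8.74, 10.96 and 7.80 and the treated levels 8.27, 8.86, 10.29 and 7.47. Here SKOV-3 lay between DOV-13 and OVCAR-3. It exceeded OVCAR-3 by 0.533 ± 0.20 (SE, limma adjusted p = 0.0609, and 0.0179 without CAOV-3), while 217165_x_at gave 2.52 ± 0.12 (SE, limma adjusted p = 1.93e-06). SKOV-3 minus DOV-13 was -0.639 by 213629_x_at (limma adjusted p = 0.0405, and 0.0627 without OVCAR-3).

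MT1E, also of the MT1 group, was read differently by its probe sets. By 212859_x_at the untreated log2 level was 8.14 in SKOV-3, 11.63 in DOV-13, 12.91 in CAOV-3 and 8.06 in OVCAR-3, and the treated level was 8.69, 11.67, 12.80 and 7.81. SKOV-3 sat with OVCAR-3 at the low end, and the arrays of DOV-13 and CAOV-3 were far above. By 216336_x_at the untreated level was 10.57, 10.92, 12.30 and 7.63, and the treated level 10.44, 10.999, 12.14 and 7.70. In it SKOV-3 sat beside DOV-13.

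The difference between SKOV-3 and DOV-13 in MT1E was -3.24 ± 0.175 (SE, limma adjusted p = 8.21e-06) by 212859_x_at and -0.456 ± 0.099 (SE, limma adjusted p = 0.00827) by 216336_x_at. SKOV-3 exceeded OVCAR-3 by 0.477 ± 0.175 (SE, limma adjusted p = 0.0563) by the former and by 2.84 ± 0.099 (SE, limma adjusted p = 4.43e-07) by the latter. Between CAOV-3 and OVCAR-3 the probe sets lay close, at 4.92 ± 0.175 and 4.56 ± 0.099 (SE). SKOV-3 was thus the line in which the reading of MT1E turned on the probe set. Whether signal from other metallothioneins contributed to either was not tested.

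**Figure D2:**
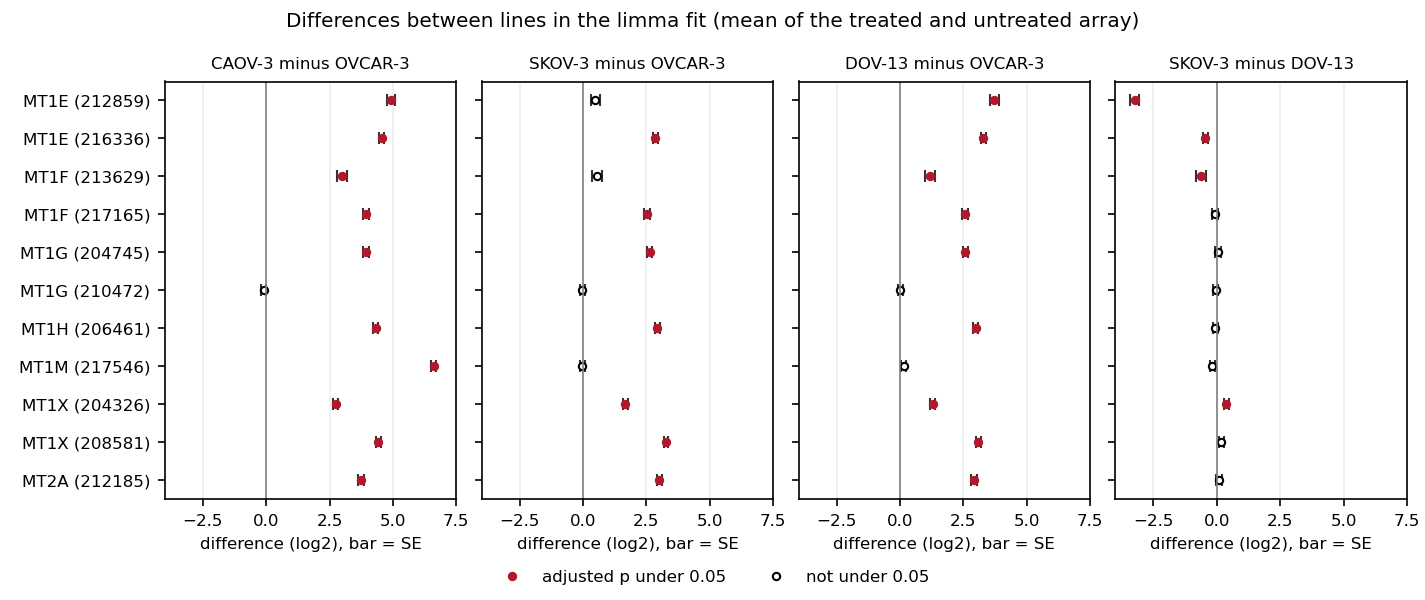
Difference in log2 level between pairs of lines for each metallothionein probe set, with the standard error of the limma fit as bars and red points for an adjusted p under 0.05. MT1E (212859_x_at) and MT1F (213629_x_at) lie at 0.477 and 0.533 in SKOV-3 minus OVCAR-3, where the other _x_at probe sets lie between 1.67 and 3.27.

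MT1M, a member of the MT1 group whose probe set 217546_at has no _x_at suffix, was bright in 1 line. Its log2 level was 10.69 untreated and 10.83 treated in CAOV-3. Untreated and treated, it read 4.07 and 4.19 in SKOV-3, 4.21 and 4.39 in DOV-13, and 4.20 and 4.11 in OVCAR-3. Those 6 arrays lay between the 10.1 and 15.2 percentile of their array, and the CAOV-3 arrays at the 95.6 and 96.1 percentile. CAOV-3 was higher than each of the others (limma adjusted p = 1.38e-08 against OVCAR-3, 1.19e-08 against SKOV-3 and 1.98e-08 against DOV-13). The other lines did not differ from each other beyond their spread, with limma adjusted p-values of 0.233 for SKOV-3 and DOV-13, 0.27 for DOV-13 and OVCAR-3, and 0.847 for SKOV-3 and OVCAR-3. Levels this low cannot be told from no expression and RMA compresses them, so no size of the difference is given.

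MT1G, another metal-inducible isoform, had a probe set of each kind. By 204745_x_at the untreated log2 level was 11.01 in SKOV-3, 10.93 in DOV-13, 12.45 in CAOV-3 and 8.36 in OVCAR-3, and the treated level was 11.11, 11.09, 12.29 and 8.50. This was the order of the brighter metallothionein probe sets. By 210472_at, which has no such suffix, the level lay between 4.23 and 4.47 on all 8 arrays, at or under the 16.8 percentile of each, and the F test did not call it (limma adjusted p = 0.719). The first put MT1G among the bright transcripts of every line, and the second near the floor of every array, where a difference between lines would not be seen. Which of them reports MT1G was not tested.

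Between pairs of lines, 50 of 66 combinations of a metallothionein probe set and a pair passed limma's test. CAOV-3 was higher than OVCAR-3 in 10 probe sets and lower in 0, where 24.2% and 23.2% of all probe sets were called in these directions. SKOV-3 was higher than OVCAR-3 in 7 and lower in 0 (25.8% and 21.3% of all), and DOV-13 higher in 9 and lower in 0 (25.6% and 20.4%). OVCAR-3 was thus the low line against each of the others. SKOV-3 was higher than CAOV-3 in 0 and lower in 10 (24.8% and 22% of all), and DOV-13 higher in 0 and lower in 10 (25% and 21.4%). SKOV-3 against DOV-13 gave 1 higher and 3 lower (17.5% and 17.4% of all), the pair with the fewest metallothionein calls.

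Differences of at least 2 on the log2 scale that passed the test were found in 10 of 11 metallothionein probe sets for CAOV-3 over OVCAR-3, against 2.51% of all probe sets. For DOV-13 over OVCAR-3 there were 7 (2.21% of all) and for SKOV-3 over OVCAR-3 6 (1.83% of all). For CAOV-3 over SKOV-3 there were 3 (2.88% of all), for CAOV-3 over DOV-13 1 (2.39% of all) and for DOV-13 over SKOV-3 1 (1.39% of all). MT1M, near the floor outside CAOV-3, was the case for CAOV-3 over DOV-13 and was also counted over OVCAR-3 and SKOV-3. The case for DOV-13 over SKOV-3 was MT1E by 212859_x_at, where 216336_x_at gave a SKOV-3 minus DOV-13 difference of -0.456. The median difference between CAOV-3 and OVCAR-3 was 3.94 over the metallothionein probe sets and -0.033 over all probe sets. That median was 2.58 against 0.038 for DOV-13 minus OVCAR-3, and 2.52 against 0.031 for SKOV-3 minus OVCAR-3.

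**Figure D3:**
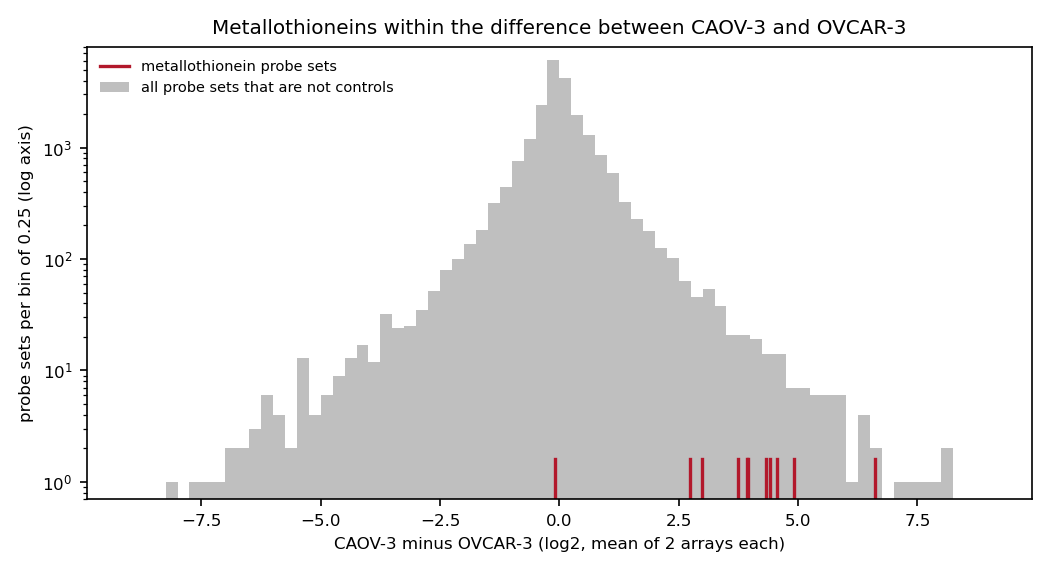
Number of probe sets (log axis) by the difference in log2 level between CAOV-3 and OVCAR-3, with the metallothionein probe sets as red ticks. The tick of MT1G (210472_at) lies at -0.10 and the others at 2.73 or higher, while the median of all probe sets is -0.033.

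After pI:pC no metallothionein passed the test over the lines. Limma with the cell line as a block called 0 of the 11 probe sets higher and 0 lower. It called 0% of all 22215 probe sets in either direction, of which 855 had an unadjusted p under 0.05, none of them a metallothionein. The smallest unadjusted p of a metallothionein was 0.221, for MT1M, whose mean log2 change was 0.09 ± 0.12 (SD, n = 4 lines, limma adjusted p = 0.996). Outside CAOV-3 the change of MT1M was read near the floor, where levels cannot be told from no expression.

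MT2A had a mean log2 change of -0.062 ± 0.17 (SD over 4 lines, as for the values that follow), and MT1H had 0.07 ± 0.14. MT1X had 0.048 ± 0.11 by 208581_x_at and -0.023 ± 0.076 by 204326_x_at, and MT1G had 0.057 ± 0.15 by 204745_x_at and 0.054 ± 0.12 by 210472_at. MT1F had -0.163 ± 0.41 by 213629_x_at and -0.006 ± 0.19 by 217165_x_at, and MT1E had 0.056 ± 0.35 by 212859_x_at and -0.035 ± 0.12 by 216336_x_at. For each of the 11 the SD over the lines exceeded the size of the mean. None was higher in all 4 lines, as 6.74% of all probe sets were, and none lower in all 4, as 4.77% were.

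The lines differed in the sign of these small changes. In DOV-13 all 11 metallothionein probe sets were higher on the treated array and 0 lower, where 60.8% and 39.2% of all probe sets were. In SKOV-3 9 were higher and 2 lower (53.1% and 46.8% of all). In CAOV-3 1 was higher and 10 lower (46.8% and 53.1% of all), MT1M being the one that was higher. In OVCAR-3 5 were higher and 6 lower (47.4% and 52.6% of all). After each array was centred on its median, 11, 9, 1 and 5 were higher in the same order of lines. Because probe sets can share transcripts these counts are not separate observations, and with 1 array per condition neither a change within a line nor its difference between lines has a test.

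The changes within a line were at most 0.66 in size. The median change of the metallothionein probe sets was 0.122 in DOV-13, 0.069 in SKOV-3, -0.108 in CAOV-3 and -0.010 in OVCAR-3. Over all probe sets it was 0.036, 0.012, -0.013 and -0.008 in that order. A size of at least 0.5 was reached by 1 in SKOV-3 (1.49% of all), 0 in DOV-13 (0.842%), 1 in CAOV-3 (4.55%) and 0 in OVCAR-3 (1.26%). In SKOV-3 it was MT1E by 212859_x_at, from 8.14 to 8.69, where 216336_x_at of the same gene went from 10.57 to 10.44. In CAOV-3 it was MT1F by 213629_x_at, from 10.96 to 10.29, where 217165_x_at went from 12.10 to 11.84. A size of 1 was reached by 0 in each line, where 0.0315% of all probe sets reached it in SKOV-3, 0.0405% in DOV-13, 0.914% in CAOV-3 and 0.171% in OVCAR-3.

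Interferon-stimulated genes, which double-stranded RNA is known to induce, are a reference for the treatment. Of 10 listed, 9 were measured, and their median change was 3.20 in OVCAR-3 and 2.12 in CAOV-3. It was 0.124 in SKOV-3 and 0.202 in DOV-13. These medians hide a spread between genes. In SKOV-3 IFI44 changed by 1.48, IFIT1 by 0.81 and ISG15 by 0.567, while IFI44L (-0.178) and IFI6 (-0.047) were lower. In DOV-13 the changes ran from -0.16 for IRF7 to 0.59 for IFI6. IFI44L and IFIT1 had the largest mean changes, 2.07 ± 2.69 and 1.88 ± 1.88 (SD over 4 lines, limma adjusted p = 0.996 for both), and 0.925 and 1.107 without OVCAR-3. In OVCAR-3, where the reference genes moved most, MT2A went from 9.54 to 9.28 and MT1H from 8.13 to 8.33.

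**Figure D4:**
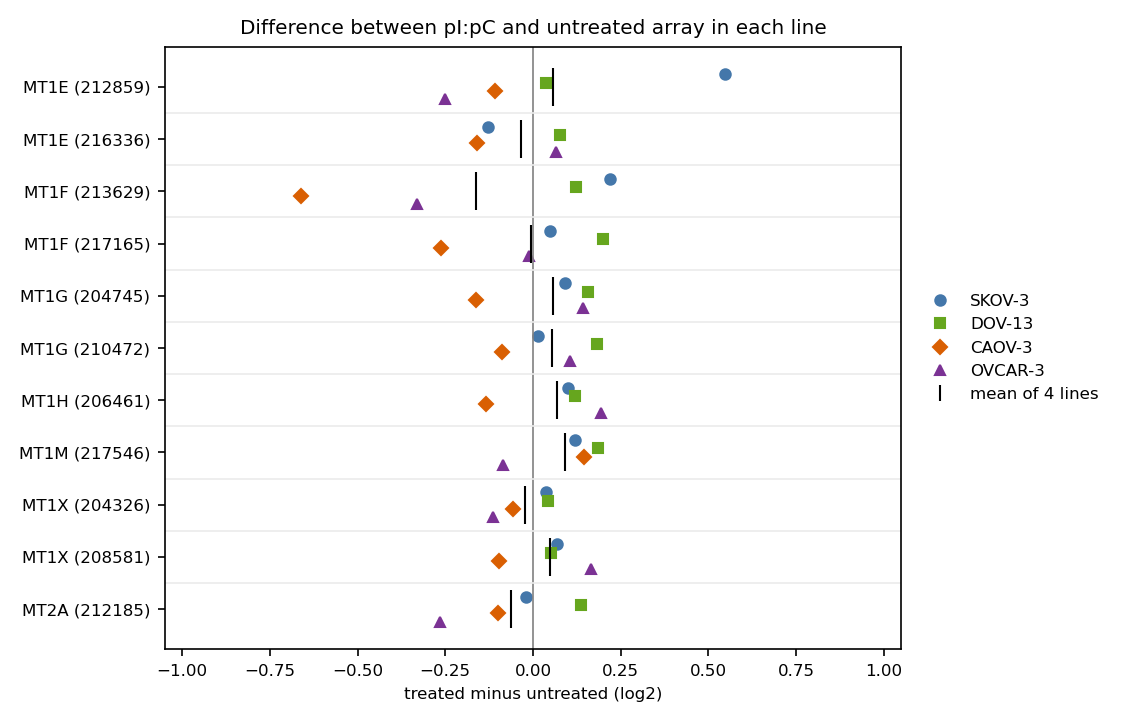
Treated minus untreated log2 difference of each metallothionein probe set in the 4 lines, with a black bar for the mean over the lines. DOV-13 lies right of 0 for all 11 probe sets and CAOV-3 left of 0 for 10, and the largest size is 0.66.

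Of 11 other metallothionein genes and pseudogenes sought, 3 were measured. MT1HL1, a metallothionein-like gene outside the cluster (211456_x_at), followed the order of MT2A with untreated log2 levels of 11.82 in SKOV-3, 11.79 in DOV-13, 12.99 in CAOV-3 and 8.88 in OVCAR-3. MT3, known from brain, lay between 6.03 and 6.29 on the 8 arrays, and MT4, known from stratified epithelium, between 5.96 and 6.31. Neither was called between any pair of lines, and the names of their probe sets have no _x_at suffix.

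The nearest measured genes on either side of the cluster are described by their brightest probe set. NUDT21, an RNA processing factor gene, and OGFOD1, an oxygenase gene, lie on the side of MT4, and NUP93, a nuclear pore gene, and SLC12A3, a salt transporter gene, on the side of MT1X. By these probe sets SKOV-3 had the highest mean for each of them. For SLC12A3 this came from the treated array, at 6.30. Untreated SKOV-3 (5.50) lay under untreated DOV-13 (5.60) and OVCAR-3 (5.55). The F test did not call SLC12A3 between lines (limma adjusted p = 0.136). The difference between CAOV-3 and OVCAR-3 was 0.259 ± 0.090 (SE, limma adjusted p = 0.047) for NUDT21 and 0.037 ± 0.10 (SE, limma adjusted p = 0.799) for OGFOD1. It was 0.728 ± 0.085 (SE, limma adjusted p = 0.000226) for NUP93 and -0.152 ± 0.20 (SE, limma adjusted p = 0.579) for SLC12A3. NUDT21 and SLC12A3 have a dimmer probe set each, and these gave the opposite sign. For NUDT21 it gave -0.322 ± 0.154 (SE, limma adjusted p = 0.127) with DOV-13 as the highest line, and for SLC12A3, between the 11.4 and 30.3 percentile of the arrays, 0.487 ± 0.085 (SE, limma adjusted p = 0.00205). Of 18 listed neighbours 13 were measured, and 6 were higher in CAOV-3 than in OVCAR-3 and 0 lower, where 26.6% and 24.7% of 11963 genes were called in these directions. The median difference was 0.251 over the neighbours and -0.032 over all genes. After pI:pC none was called. SLC12A3 had the largest mean change, 0.209 ± 0.41 (SD over 4 lines), which was 0.011 without SKOV-3 and 0.325 without OVCAR-3, and OGFOD1 had 0.118 ± 0.135, which was 0.059 without CAOV-3.

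**Figure D5:**
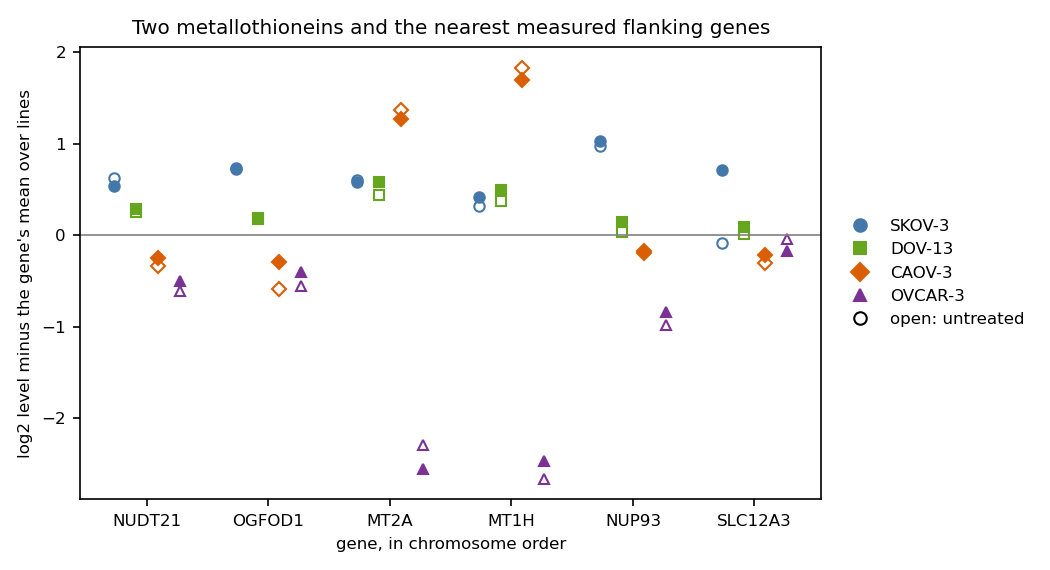
Log2 level of MT2A, MT1H and the flanking genes relative to each gene's mean over the lines, in chromosome order, with open symbols for untreated and filled symbols for pI:pC arrays. For the probe sets drawn, CAOV-3 and OVCAR-3 lie far apart for MT2A and MT1H and close together for NUDT21 and OGFOD1. CAOV-3 minus OVCAR-3 is 0.728 for NUP93 and -0.152 for SLC12A3.

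MTF1, the metal-sensing activator of the metallothionein genes, averaged 7.75 in CAOV-3, 7.24 in OVCAR-3, 6.72 in SKOV-3 and 6.64 in DOV-13 on the log2 scale (205322_s_at). By this probe set MTF1 was highest in CAOV-3, and OVCAR-3 had more of it than SKOV-3 or DOV-13. Whether its level bears on the metallothionein order was not tested. SKOV-3 minus OVCAR-3 was -0.522 (limma adjusted p = 0.00318) and DOV-13 minus OVCAR-3 was -0.600 (limma adjusted p = 0.00153). The mean log2 change of MTF1 after pI:pC was 0.16 ± 0.13 (SD, n = 4 lines, limma adjusted p = 0.996), with values above 0 in 4 of 4 lines. The other MTF1 probe set (205323_s_at) gave the same signs for SKOV-3 and DOV-13 against OVCAR-3 but no call (limma adjusted p = 0.0945 and 0.135). Against CAOV-3 it was called, at -0.331 for SKOV-3 (limma adjusted p = 0.0239) and -0.305 for DOV-13 (limma adjusted p = 0.0337). Its mean change was -0.026.

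SLC30A1, the zinc exporter that MTF1 also controls, had untreated log2 levels of 9.13 in SKOV-3, 9.10 in DOV-13, 9.61 in CAOV-3 and 9.58 in OVCAR-3, and treated levels of 9.14, 9.07, 9.76 and 9.66. CAOV-3 and OVCAR-3 lay together above the others, with a difference of 0.067 (limma adjusted p = 0.583). HMOX1, a stress enzyme gene that metals also induce, had a mean change after pI:pC of -0.176 ± 0.23 (SD, n = 4 lines, limma adjusted p = 0.996), which was -0.084 without CAOV-3 and -0.267 without SKOV-3.

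Of 16 measured genes of zinc transport and sensing, 4 were higher in CAOV-3 than in OVCAR-3 and 8 lower, with a median difference of -0.266. Of 10 genes of copper handling 5 were higher and 3 lower (median 0.508), and of 20 targets of the oxidative stress factor NRF2 15 were higher and 2 lower (median 0.589). Of 14 heat shock genes 5 were higher and 4 lower, of 10 glucocorticoid receptor genes and targets 4 and 4, and of 14 genes of IL6 and STAT3 signalling 5 and 4. The background for these counts is that given for the neighbours.

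After pI:pC 0 genes of these lists were called in either direction. The median of the mean changes was -0.013 for zinc, 0.029 for copper, -0.113 for NRF2, 0.024 for heat shock, -0.074 for glucocorticoid and 0.065 for IL6 and STAT3 genes, against 0.007 over all genes. Beside MTF1, the zinc gene with the largest mean change was the importer SLC39A4 at 0.156 ± 0.070 (SD over 4 lines, as below). The copper pumps ATP7A and ATP7B had -0.191 ± 0.215 and -0.182 ± 0.22, and the reductases AKR1C3 and AKR1B10 of the NRF2 list had -0.526 ± 0.60 and -0.313 ± 0.27. The heat shock factor HSF1 had 0.139 ± 0.090 and the chaperone gene HSPA1L 0.127 ± 0.092. NFKBIA, the inhibitor of NF-kappaB, had 0.507 ± 0.44, the phosphatase gene DUSP1 -0.165 ± 0.245, the cytokine IL6 0.771 ± 1.23 and the siderophore-binding LCN2 0.538 ± 0.28. Several of these means rested on 1 line. Without CAOV-3 the mean was 0.162 for IL6, 0.311 for NFKBIA, -0.081 for DUSP1 and -0.091 for ATP7A. Without DOV-13 it was -0.246 for AKR1C3 and -0.091 for ATP7B. For DUSP1 the mean without DOV-13 was larger in size, at -0.277.

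Among 5924 probe sets of other genes whose mean level reached the median and whose range was at least 1 on the log2 scale, the closest to the mean metallothionein profile over the 8 arrays was SCO2, a mitochondrial copper chaperone gene (Pearson r = 0.997). The lysosomal enzyme gene GUSB and the collagen-modifying P4HA2 followed at 0.995 each, then the homeobox gene MSX1 at 0.993 and the peroxidase gene PRDX2 at 0.992. The most opposed were APP, the amyloid precursor gene (-0.998), MAPK1IP1L (-0.998) and KLC1, a kinesin subunit gene (-0.994). SCO2 had untreated log2 levels of 7.86 in SKOV-3, 7.996 in DOV-13, 8.74 in CAOV-3 and 6.89 in OVCAR-3, a range of 1.94 over the arrays. The 8 arrays are pairs from 4 lines, so r rests on 4 line levels and is a description only.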

How the data were processed

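The deposited table holds log2 values, which the authors obtained by RMA according to the submitters' processing notes. The RMA version and program are not stated in what was used here. Group and line came from the sample labels, and a line's treated and untreated arrays were paired because they share the line: their deviations from the group means correlated at 0.936 to 0.965. Symbols came from the platform annotation (19064 probe sets with 1, 1043 with several and 2108 with none, 62 array controls left out), and all 11 gene identifiers matched the RefSeq gene table.

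The 22215 probe sets were fitted by limma (version 3.58.1, in R 4.3.3) with lmFit, eBayes and terms for line and treatment (3 residual and 4.59 prior degrees of freedom). Two-sided p-values were adjusted by Benjamini-Hochberg across all probe sets, separately for each pair of lines, at a threshold of 0.05. The script was tested on simulated data. The arrays of a group come from different lines, and no line has more than 1 array per condition, so p-values measure only the spread between these arrays, whose number limits precision.

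Lists use the probe set with the highest mean per gene. Named genes were all metallothioneins, in every list the 2 genes whose mean change was largest in size, MTF1, SLC30A1, HMOX1, the 2 nearest measured neighbours on each side, and the 5 highest and 3 lowest r with the mean profile. Further genes of the glucocorticoid and interferon lists were named after their values were seen. Members and lists were chosen with earlier results of these data known. Alternatives left out the cell line block or the treatment term, took 1 probe set per gene, set a filter at the median level, normalized by quantiles, centred arrays, used trend and robust in eBayes, set the threshold at 0.10 or left out each line.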

Additional observations from a re-analysis of the deposited data

Results flagged for a closer look

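In each group of 4 arrays or lines, the distance of the highest or lowest value to its neighbour was divided by the range and compared with Dixon's critical value at 95%, which chance exceeds in about 1 of 20 groups. Of 33 groups of metallothionein values, 2 exceeded it, both of MT1M. Its log2 level in untreated CAOV-3 was 10.687, against 4.07 to 4.21 in the other lines (distance over range 0.979). Its level in treated CAOV-3 was 10.834, against 4.11 to 4.39 (distance over range 0.958). Both come from 1 probe set in 1 line, and the cause was not tested.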

How the results depend on the processing

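After pI:pC 0 of all probe sets were called under each alternative run, including the fit without the cell line as a replicate block (0) and the fits without each line. The count of 0 metallothioneins under these alternatives therefore says nothing about its stability. The F test called 10 of 11 metallothionein probe sets, 7 of 7 with 1 probe set per gene, 9 of 9 above the median level, and 9 to 10 when 1 line was left out. MT1G (210472_at), the probe set not called, is removed by the choice per gene and by the level filter, so their full counts say little about stability. Over the pairs of lines 50 of 66 combinations were called, and 21 to 29 of 33 when 1 line was left out, which removes 3 of the 6 pairs. Of 558 values of single probe sets and pairs of lines under the alternatives, 550 kept their direction and their side of the threshold. A direction could turn only with quantile normalization or centred arrays, as the other alternatives leave the difference between line means unchanged. MT1E (212859_x_at) passed between SKOV-3 and OVCAR-3 without the treatment term (limma adjusted p = 0.0444), with the level filter (0.0465) and at the threshold of 0.10, as did MT1F (213629_x_at) at that threshold and without CAOV-3 (0.0179). MT1F did not pass between SKOV-3 and DOV-13 with trend and robust (0.0516) or without OVCAR-3 (0.0627). DOV-13 minus OVCAR-3 in MT1G (210472_at) turned from 0.009 to -0.073 with centred arrays. The cause was not tested.

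Mean changes after pI:pC that turned sign when 1 line was left out were those of MT1E (-0.108 to 0.159 by 212859_x_at, below 0 without SKOV-3, and -0.073 to 0.006 by 216336_x_at, above 0 without CAOV-3), MT1F (-0.290 to 0.004 by 213629_x_at and -0.074 to 0.080 by 217165_x_at, both above 0 without CAOV-3), and MT1X (-0.045 to 0.007 by 204326_x_at) and MT2A (-0.128 to 0.006), both above 0 without OVCAR-3. The files give no background signal, so the low values of MT1M and of MT1G (210472_at) cannot be told from no expression.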
